A study of Mus musculus with 10 samples.

Results

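The collagen genes were taken as every protein-coding row whose gene symbol is Col followed by a type number, the letter a and a chain number. The rule found 44 of 78317 listed genes: 11 fibrillar collagen genes, 6 of type IV and 27 of other types. They were followed in poly(A) RNA sequencing of punches, 1 mm across, from the medial prefrontal cortex, a frontal region of the mouse brain. The comparison set 5 libraries from wild-type mice given an adeno-associated virus (AAV) for overexpression of the microRNA miR-130a-3p (numbers 13, 14, 15, 17 and 18) against 5 libraries from wild-type mice given a control AAV (numbers 3, 4, 5, 7 and 9). The promoter of the virus, the age of the mice and the number of mice per library are not given in the sources used here, so p-values measure the spread between libraries, which may be technical in part.

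Collagens are proteins of the extracellular matrix whose chains wind around each other into rope-like helices. Fibrillar collagens are secreted with end pieces that are cut away before the molecules pack into fibrils, and they are made mainly by fibroblasts, which in the brain lie in the meninges and around larger vessels. Type IV collagen forms the sheet-like network of basement membranes and is made in the brain by endothelial and mural cells of the vessels. Other types decorate fibrils, form beaded filaments or sit in the plasma membrane, and some of these are made by neurons.

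The miRNA and the searched sites are shown first because the treatment acts through base pairing. The mature miRNA has its seed, bases 2 to 8, in capitals, and the miR-29a-3p sequence below it, a family long known to pair with collagen messages, served as a check that the search finds sites. Both are mouse sequences from RefSeq on GRCm38.p6.

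mmu-miR-130a-3p: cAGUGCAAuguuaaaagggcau

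mmu-miR-29a-3p: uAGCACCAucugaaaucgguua

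The longest annotated 3′ untranslated region of each gene was searched for TTGCACT, which pairs with bases 2 to 8 of miR-130a-3p, and TGCACTA, which pairs with bases 2 to 7 and adds an A. Either heptamer was present in 15.98% of the 13275 tested genes that had such a region, and in 0 of the 44 collagen genes. The collagen regions had a median length of 1032.5 bases and a range of 185 to 4708, against a median of 1225 over the tested genes. The miR-29a-3p heptamer TGGTGCT was present in 25 of 44 collagen genes, or 56.8%, against 15.6% of the tested genes. The 6 letters TGCACT, shared by both miR-130a-3p heptamers, were present in 11 of the 44 (25.0%), against 34.8% of the tested genes. Among the 9 collagen genes whose expression fell, described below, 3 held these 6 letters and 7 held the miR-29a-3p heptamer. The windows of those 3 are shown with the matching letters in capitals, in the sense of the transcript, and a miR-29a-3p window of Col3a1 is shown beside them for contrast. A match describes these letters only, and where none was found these letters are not in the region searched.

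Col4a1: ttgcaatccagTGCACTgatgtctgggg

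Col5a2: accattttgtcTGCACTggcttaaaaat

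Col6a2: gattaaaggcaTGCACTgccatgcccca

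Col3a1 (miR-29a-3p site): aaatgtctcaaTGGTGCTataataaataa

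Values are the deposited TPM, a unit that scales reads by transcript length and to one fixed library total, so levels can be set side by side between genes, but the depth behind each value is unknown. Mir130a, the gene of the overexpressed miRNA, was listed at 0 in all 10 libraries, as were all 2206 microRNA genes, so these libraries do not show the overexpression itself. Groups were compared with limma on log2(TPM + 1) over the 15680 genes with a mean of at least 1 TPM, 2-sided, with Benjamini-Hochberg adjustment over all of them and a threshold of 0.05. Fold changes are miR-130a minus control on that log2 scale, which understates changes of low genes. Over all genes in the test the median was −0.09, and 16.3% of calls were higher in miR-130a libraries, a share that became 42.0% under median-ratio scaling, where the median moved to 0.01.

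Counts are also given without control libraries 7 and 9, an alternative chosen from earlier results of these data. The mean correlation of a library with the others of its group, across genes, was 0.934 for control library 9, 0.959 for control library 7 and between 0.955 and 0.971 for the other 8, so by this measure only library 9 stood apart. Collagen messages were low in this tissue. Over all 10 libraries 8 collagen genes averaged at least 5 TPM, 14 lay between 1 and 5 TPM, 18 between 0.1 and 1 TPM and 4 under 0.1 TPM. Highest were Col1a2, Col4a2 and Col4a1 with mean levels of 11.03, 10.10 and 10.01 TPM, followed by Col25a1 at 8.14 TPM. The first 3 differ by less than their spread between libraries, so their order is not resolved. The 22 genes of at least 1 TPM entered the test, and the other 22 are given by their values.

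Expression of 9 of the 22 tested collagen genes fell in miR-130a libraries, 0 rose and 13 did not pass. By the same rule, 11.3% of all tested genes fell and 2.19% rose. The 9 were the fibrillar genes Col1a1, Col1a2, Col3a1, Col5a1 and Col5a2, the type IV genes Col4a1 and Col4a2, and Col6a2 and Col18a1. At an unadjusted p under 0.05, 14 collagen genes were lower and 0 higher, but the share of all tested genes at that level was not computed. All tested genes leaned the same way, with 9973 negative and 5707 positive estimates, so this count cannot be read alone. The median log2 fold change was −0.65 over the 22 collagen genes, −0.77 over 6 fibrillar, −0.70 over 3 type IV and −0.37 over 13 other genes. Relative to all tested genes the collagen median was −0.55 as deposited, −0.58 under median-ratio scaling and −0.52 under quantile normalization. Groups did not overlap for 7 of the 22, all lower in miR-130a libraries, against 9.46% of all tested genes, and for 0 higher ones, against 1.85%. Among these 7, Col5a1 and Col5a2 reached the level set for testing only through their control values. Without control libraries 7 and 9, 3 collagen genes fell, Col3a1, Col4a1 and Col4a2, or 13.6% of the 22, against 15.6% of all tested genes, so in that setting the collagen share was no higher than the background. The median relative to all genes was then −0.34. Leaving out control library 7 gave 4 lower collagen genes (18.2%, against 7.07% of all tested genes), and leaving out miR-130a library 14 gave 5 (22.7%, against 7.12%). Without control library 9 alone the count stayed at 9 (40.9%, against 18.6%).

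**Figure D1:**
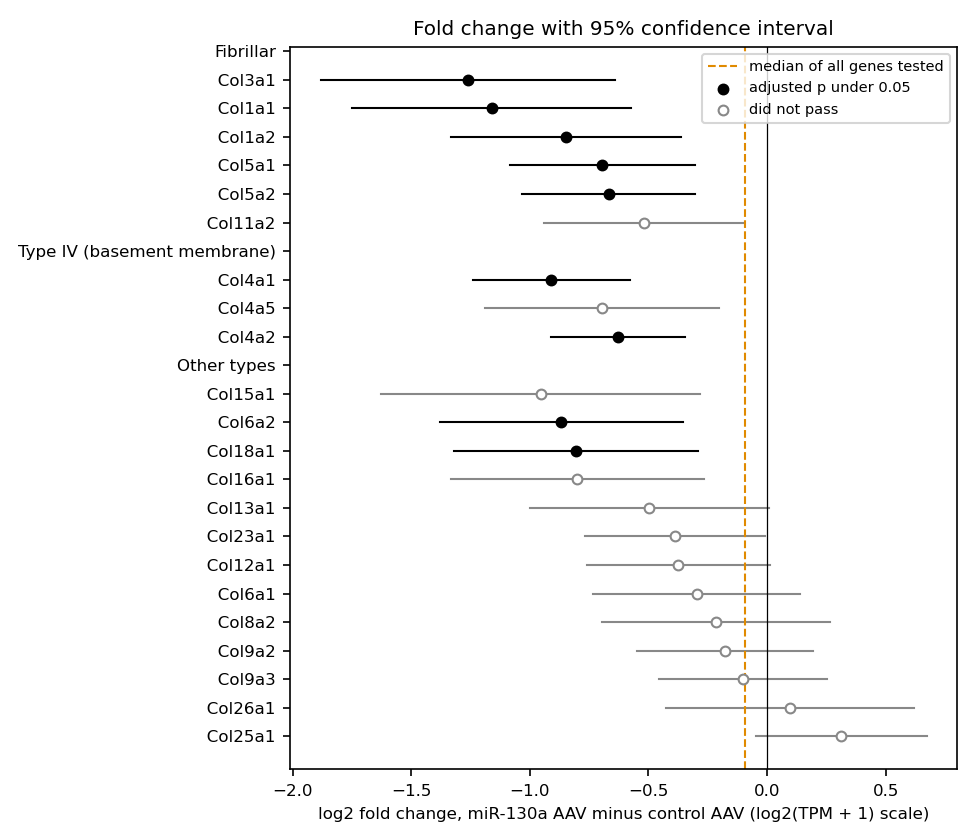
Log2 fold change of each tested collagen gene, miR-130a minus control on the log2(TPM + 1) scale, with its 95% confidence interval from limma (n = 5 libraries per group); filled points passed an adjusted p of 0.05, open points did not, and the dashed line is the median of all tested genes at −0.09. The 9 filled points lie between −1.26 and −0.63, and the 2 genes with positive estimates are Col26a1 and Col25a1.

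Of the 3 tested type IV genes 2 fell, both without overlap between the groups. Among all tested genes 11.3% fell and 9.46% were lower without overlap, and a share over 3 genes is coarse. Col4a1 encodes a chain of the network found in almost every basement membrane. Its level was 5.46, 4.92, 6.01, 8.04 and 9.34 TPM in miR-130a libraries 13, 14, 15, 17 and 18, against 12.6, 12.02, 13.1, 14.2 and 14.4 TPM in control libraries 3, 4, 5, 7 and 9. Every miR-130a library lay below every control, and control values were packed within a narrow band. The log2 fold change of Col4a1 was −0.91 ± 0.15 (SE; limma adjusted p = 0.00357). Col4a2, the partner chain of Col4a1 in the same molecule, had 7.01, 6.48, 6.92, 8.95 and 9.30 TPM in miR-130a libraries, against 15.7, 11.2, 11.2, 12.5 and 11.8 TPM in control libraries. Here too the groups did not overlap, and control library 3 stood above the other controls. Col4a2 fell by 0.63 ± 0.13 on the log2 scale (limma adjusted p = 0.00932). Both calls stayed past the threshold in all 19 alternative settings, with adjusted p-values of up to 0.0182 for Col4a1 and 0.0450 for Col4a2.

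The Col4a1 and Col4a2 genes lie head to head on chromosome 8 and start within each other, a layout known for type IV pairs. RefSeq places the first base of Col4a1 (minus strand) at 11312826 and that of Col4a2 (plus strand) at 11312805, so that 22 bases belong to the first exon of both. That stretch is shown because these genes fell together. It is chr8:11312801-11312830 on the plus strand of GRCm38.p6, with the shared bases in capitals, and it holds GGGCGG, the letters bound by Sp1-type factors.

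Col4a1 and Col4a2 start: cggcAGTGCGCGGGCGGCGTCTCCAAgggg

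The library kit keeps strand, but whether counting used it is not given, and reads over these shared bases could then be credited to either gene. In each library the ratio of Col4a1 to Col4a2 level was 0.862 ± 0.0988 in miR-130a libraries and 1.08 ± 0.164 in control libraries (SD, n = 5 each), a description without a test, with overlapping ranges of 0.759 to 1.00 and 0.805 to 1.22.

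The remaining type IV genes were weakly expressed. Col4a5, an X-linked chain best known from the kidney filter, had 0.61, 0.56, 1.04, 0.97 and 1.05 TPM in miR-130a libraries, against 1.66, 1.68, 0.97, 2.58 and 3.59 TPM in control libraries. Only control library 5 reached into the miR-130a range, and Col4a5 did not pass (log2 fold change −0.70 ± 0.22 SE, limma adjusted p = 0.0624). It passed without control library 5 (adjusted p = 0.0248). Col4a6, whose start lies 1343 bases from that of Col4a5 on the opposite strand of the X chromosome, was under the level set for testing. Its values were 0.36, 0.16, 0.38, 0.30 and 0.39 TPM in miR-130a libraries, against 0.65, 0.94, 0.66, 1.45 and 1.48 TPM in control libraries. Those ranges do not overlap, which held for 4.48% of the 36601 genes above 0 in at least 1 library, and in a limma fit without a filter the adjusted p of Col4a6 was 0.0525. Col4a3 and Col4a4, the other chains of the kidney filter, averaged 0.028 and 0.088 TPM in miR-130a libraries and 0.038 and 0.124 TPM in control libraries.

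**Figure D2:**
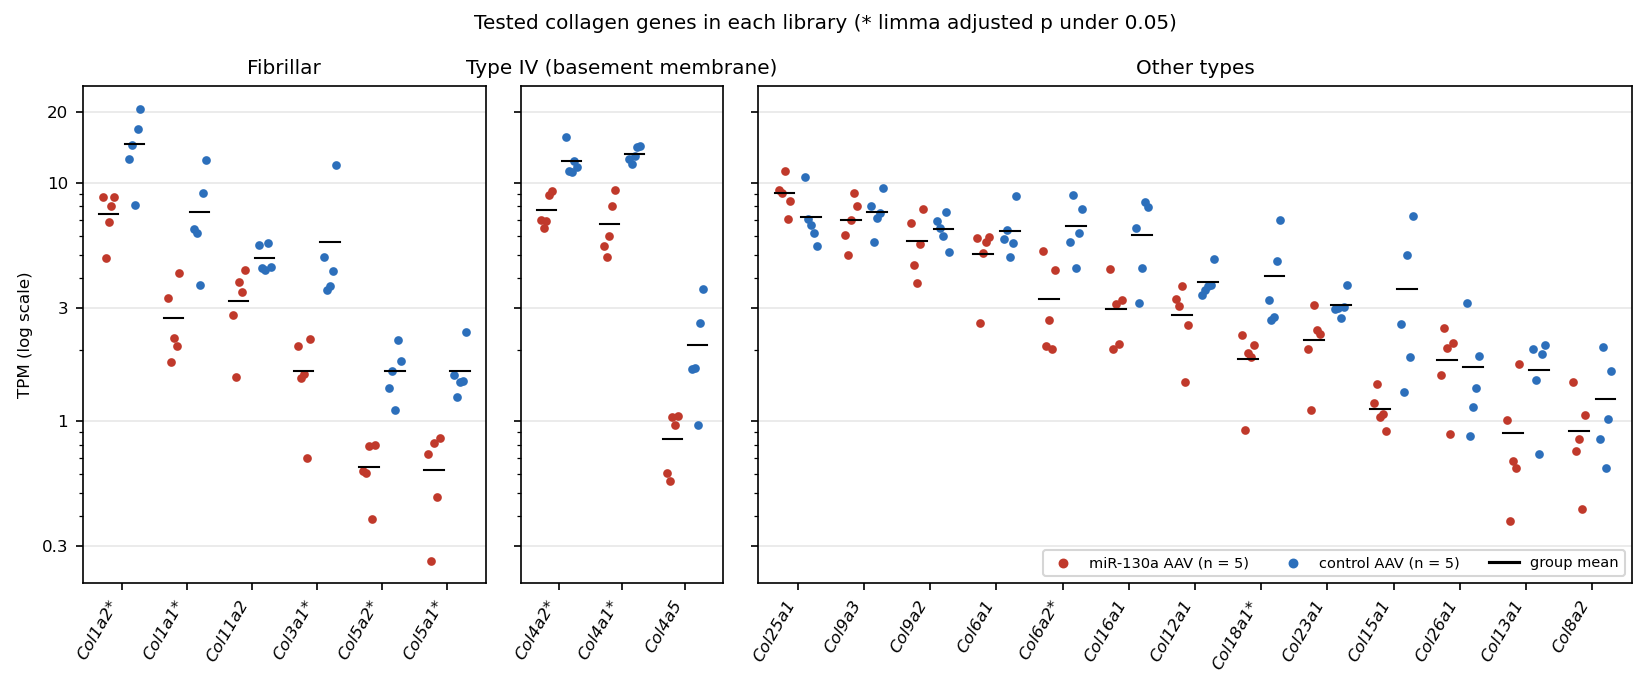
Level of the 22 tested collagen genes in every library in TPM on a log axis, by class, with miR-130a libraries left of control libraries for each gene and the group mean as a bar; an asterisk marks a limma adjusted p under 0.05. For Col4a1 and Col4a2 the highest miR-130a values, 9.34 and 9.30 TPM, lie below the lowest control values, 12.02 and 11.2 TPM.

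Among the fibrillar collagens 5 of the 6 tested genes fell (83.3%, against 11.3% of all tested genes). Col1a1 and Col1a2 encode the chains of type I collagen, the main fibril of connective tissue. Col1a1 was at 3.31, 1.77, 2.24, 2.08 and 4.22 TPM in miR-130a libraries, against 6.44, 6.20, 3.73, 9.12 and 12.6 TPM in control libraries. The single crossing was miR-130a library 18 above control library 5. Col1a1 fell by 1.16 ± 0.27 on the log2 scale (SE; limma adjusted p = 0.0159). Col1a2 had 8.78, 4.85, 6.89, 8.07 and 8.74 TPM in miR-130a libraries, against 12.7, 14.5, 8.14, 16.99 and 20.6 TPM in control libraries. Again control library 5 was the low one, and miR-130a libraries 13 and 18 lay above it. The change of Col1a2 was −0.85 ± 0.22 (SE; limma adjusted p = 0.0266), and its call was lost without miR-130a library 14 or 15 or control library 4 or 7 (adjusted p-values from 0.0541 to 0.0721) and under median-ratio scaling (0.0727). The ratio of Col1a1 to Col1a2 level was 0.361 ± 0.0823 in miR-130a libraries and 0.508 ± 0.0706 in control libraries (SD, n = 5 each; not tested), with ranges of 0.258 to 0.483 and 0.428 to 0.609.

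Col3a1 encodes type III collagen, which forms fine fibrils in vessel walls and meninges. It had 2.08, 1.52, 1.58, 0.70 and 2.23 TPM in miR-130a libraries, against 4.92, 3.57, 3.69, 4.30 and 11.9 TPM in control libraries. The groups did not overlap, and control library 9 stood far above the other controls. Col3a1 had the largest decrease of the tested collagen genes on the log2 scale, −1.26 ± 0.28 (SE; limma adjusted p = 0.0140), and passed in all 18 alternatives that gave it a value. Col5a1 and Col5a2 encode chains of type V collagen, which limits the width of type I fibrils. Col5a1 was at 0.73, 0.26, 0.81, 0.48 and 0.85 TPM in miR-130a libraries, against 1.57, 1.27, 1.46, 1.48 and 2.38 TPM in control libraries. Col5a2 was at 0.62, 0.61, 0.79, 0.39 and 0.80 TPM in miR-130a libraries, against 1.38, 1.63, 1.12, 2.19 and 1.79 TPM in control libraries. Neither gene's groups overlapped, with log2 fold changes of −0.70 ± 0.18 and −0.67 ± 0.17 (SE; limma adjusted p = 0.0249 and 0.0221). Both reached the level set for testing, at means of 1.129 and 1.132 TPM, only through control values, since every miR-130a value was under 1 TPM. In the limma fit without a filter the adjusted p was 0.0518 for Col5a1, which did not pass, and 0.0443 for Col5a2. Leaving out control library 7 ended both calls (limma adjusted p = 0.0527 for Col5a1 and 0.0641 for Col5a2), and leaving out miR-130a library 14 ended that of Col5a1 (limma adjusted p = 0.0544).

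Col11a2, a chain of the minor fibrillar type XI of cartilage, did not pass although its groups did not overlap. It had 2.81, 1.53, 3.85, 3.51 and 4.32 TPM in miR-130a libraries, against 5.52, 4.40, 4.34, 5.64 and 4.44 TPM in control libraries, and the gap between the groups was narrow (log2 fold change −0.52 ± 0.19 SE, limma adjusted p = 0.0978). The other 5 fibrillar genes, Col2a1, Col5a3, Col11a1, Col24a1 and Col27a1, averaged between 0.046 and 0.522 TPM in miR-130a libraries and between 0.034 and 0.608 TPM in control libraries.

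Of the fibrillar genes that fell, Col1a2, Col3a1 and Col5a1 had a promoter in the RefSeq table. Those of Col1a2 and Col3a1 are shown as the pair with the larger decreases, chosen after their values were seen. Each run is the 250 bases before the first base of the gene, plus strand of GRCm38.p6, with capitals for the letters of the CCAAT box, of a GC box (GGGCGG) and of a TATA box (TATAAA), found on either strand. They are chr6:4505368-4505617 for Col1a2 and chr1:45311288-45311537 for Col3a1.

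Col1a2: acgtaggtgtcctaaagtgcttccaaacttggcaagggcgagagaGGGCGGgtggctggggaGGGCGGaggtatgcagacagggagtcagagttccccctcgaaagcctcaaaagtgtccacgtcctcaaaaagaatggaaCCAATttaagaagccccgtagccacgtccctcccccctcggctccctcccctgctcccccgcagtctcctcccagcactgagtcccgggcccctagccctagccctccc

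Col3a1: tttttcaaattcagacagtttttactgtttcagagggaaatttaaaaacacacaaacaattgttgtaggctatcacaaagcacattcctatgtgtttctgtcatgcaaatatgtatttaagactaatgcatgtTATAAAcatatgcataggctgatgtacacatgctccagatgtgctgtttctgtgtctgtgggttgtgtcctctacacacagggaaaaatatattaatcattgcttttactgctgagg

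The Col1a2 run holds GGGCGG at −205 and −188 and CCAAT, the letters of the CCAAT box, at −109 from the first base. The Col3a1 run, rich in A and T, holds TATAAA, the letters of a TATA box, at −117. The runs shown share no match of the same motif, while that of Col5a1, not shown, holds GGGCGG at −73 and, on the opposite strand, at −205, and so has this motif in common with Col1a2. Over windows of 250 bases before to 50 after the start, CCAAT was present on either strand in 13 of the 35 collagen genes with a promoter in the table, or 37.1%, against 37.4% of 32851 promoters. TATAAA was present in 14.3% of the collagen genes, against 13.6% of all promoters, and GGGCGG in 62.9%, against 35.7%. The collagen shares count genes, some with more than 1 window, while the shares of all promoters count windows.

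Of the 13 tested genes of other types 2 fell and 11 did not pass. That share, 15.4%, lies near the 11.3% of all tested genes that fell, so the count says nothing particular about these types. Col18a1, which encodes a basement membrane collagen whose end is released as endostatin, had 2.30, 0.92, 1.94, 1.86 and 2.10 TPM in miR-130a libraries, against 3.25, 2.67, 2.75, 4.73 and 7.0 TPM in control libraries. Its groups did not overlap, and control libraries 7 and 9 were the highest (log2 fold change −0.80 ± 0.24 SE, limma adjusted p = 0.0430). The call of Col18a1 was lost on leaving out any 1 of the 5 miR-130a libraries, control library 3 or control library 7, with adjusted p-values from 0.0593 to 0.106, and under median-ratio scaling (limma adjusted p = 0.0840). Col15a1, the closest relative of Col18a1, had 1.2, 1.44, 1.04, 1.07 and 0.91 TPM in miR-130a libraries, against 2.56, 1.33, 5.01, 1.86 and 7.30 TPM in control libraries. The miR-130a values were tightly grouped and the controls widely scattered, with control library 4 inside the miR-130a range. Col15a1 did not pass (log2 fold change −0.95 ± 0.31 SE, limma adjusted p = 0.0617), but did without control library 4 (adjusted p = 0.0257).

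In type VI collagen, which forms beaded filaments around cells, 1 of 2 tested chains fell, too few to set against the 11.3% of all tested genes. Both had negative estimates, and the difference between them was not tested. Col6a2 was at 5.21, 2.07, 2.67, 2.02 and 4.32 TPM in miR-130a libraries, against 5.66, 8.95, 4.43, 6.16 and 7.84 TPM in control libraries. Only miR-130a library 13 lay above a control, library 5, and Col6a2 fell by 0.87 ± 0.23 on the log2 scale (SE; limma adjusted p = 0.0312). That call was lost without miR-130a library 14, 15 or 17 or control library 3, 4 or 7, with adjusted p-values from 0.0520 to 0.0836, and under median-ratio scaling (adjusted p = 0.0590). Col6a1, its partner chain, had 5.89, 2.60, 5.11, 5.68 and 5.94 TPM in miR-130a libraries, against 5.85, 6.40, 4.93, 5.63 and 8.84 TPM in control libraries. Apart from a low miR-130a library 14 and a high control library 9 the Col6a1 values interleaved, and the gene did not pass (log2 fold change −0.30, 95% interval −0.73 to 0.14, limma adjusted p = 0.370). The ratio of Col6a1 to Col6a2 level was 1.70 ± 0.691 in miR-130a libraries and 0.981 ± 0.171 in control libraries (SD, n = 5 each; not tested), with every miR-130a ratio, from 1.13, just above every control ratio, up to 1.13. Col6a3, the long chain of the same filament, averaged 0.560 ± 0.181 TPM in miR-130a and 1.37 ± 0.711 TPM in control libraries (SD, n = 5 each), and Col6a4 averaged 1.102 ± 0.240 TPM in miR-130a and 0.614 ± 0.412 TPM in control libraries. Both were under the level set for testing and had overlapping groups, and Col6a5 and Col6a6 averaged between 0.018 and 0.150 TPM in either group.

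Fibril-associated collagens sit on the surface of fibrils and link them to other matrix. Col9a3 and Col9a2, chains of type IX, were the highest of them. Col9a3 had 6.07, 5.01, 7.02, 9.09 and 8.01 TPM in miR-130a libraries, against 8.02, 5.67, 7.18, 7.48 and 9.53 TPM in control libraries. Col9a2 had 6.81, 4.52, 3.83, 5.54 and 7.81 TPM in miR-130a libraries, against 6.97, 6.47, 6.04, 7.58 and 5.15 TPM in control libraries. Values of the groups were intermixed for both, with 95% intervals of the log2 fold change from −0.45 to 0.25 for Col9a3 and from −0.55 to 0.20 for Col9a2 (limma adjusted p = 0.736 and 0.545). Col16a1 came close to the threshold, at 2.97 ± 0.961 TPM in miR-130a and 6.08 ± 2.26 TPM in control libraries (SD, n = 5 each; log2 fold change −0.80, limma adjusted p = 0.0506). It passed without miR-130a library 13 or control library 4, with adjusted p-values from 0.0171 to 0.0484. Col12a1 was at 2.81 ± 0.860 TPM in miR-130a and 3.84 ± 0.558 TPM in control libraries and did not pass (limma adjusted p = 0.189).

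Col20a1, another fibril-associated gene, averaged under 1 TPM over the 10 libraries and was outside the test. Its values were 0.24, 0.08, 0.28, 0.20 and 0.42 TPM in miR-130a libraries, against 0.97, 0.57, 1.83, 2.42 and 1.80 TPM in control libraries. The groups did not overlap, and in the fit without a filter Col20a1 passed (log2 fold change −0.97, limma adjusted p = 0.0334), where 3.07% of 36601 genes were lower. Col9a1, Col14a1, Col19a1 and Col22a1 averaged between 0.242 and 0.726 TPM in miR-130a libraries and between 0.320 and 0.704 TPM in control libraries, with overlapping groups.

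None of the 3 tested transmembrane collagens passed, and their difference from the fibrillar class was not tested. Col25a1, a membrane collagen of neurons whose shed part was found in amyloid plaques, had 9.36, 9.14, 11.3, 7.09 and 8.46 TPM in miR-130a libraries, against 10.6, 7.08, 6.68, 6.17 and 5.46 TPM in control libraries. The groups overlapped through control library 3 alone, the second highest of all 10, and the other 4 controls lay below every miR-130a library, by as little as 7.08 against 7.09 TPM. Col25a1 did not pass as deposited (log2 fold change 0.31, 95% interval −0.05 to 0.67, limma adjusted p = 0.242) and passed upward only under quantile normalization (0.50, adjusted p = 0.0478). Col23a1 was at 2.19 ± 0.717 TPM in miR-130a and 3.09 ± 0.375 TPM in control libraries, and Col13a1, which is needed at the junction of nerve and muscle, at 0.892 ± 0.529 and 1.65 ± 0.565 TPM in the same groups (SD, n = 5 each). Neither passed (limma adjusted p = 0.168 and 0.182), and Col17a1, a collagen of epithelial attachment, averaged 0.208 TPM in miR-130a and 0.310 TPM in control libraries. The summed level of these 4 genes ranged from 10.3 to 15.3 TPM in miR-130a and from 10.4 to 15.7 TPM in control libraries.

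Among the short-chain network genes, Col8a2 was at 0.908 ± 0.383 TPM in miR-130a and 1.24 ± 0.590 TPM in control libraries (SD, n = 5 each) and did not pass (limma adjusted p = 0.574). Col8a1 averaged 0.650 TPM in miR-130a and 0.724 TPM in control libraries, and Col10a1, a collagen of growth plate cartilage, 0.032 and 0.112 TPM. Col26a1 was at 1.82 ± 0.615 TPM in miR-130a and 1.69 ± 0.899 TPM in control libraries (SD, n = 5 each; limma adjusted p = 0.841). Col7a1, which anchors epithelia to the layer below, was at 0.06, 0.06, 0.10, 0.15 and 0.29 TPM in miR-130a libraries, against 0.85, 0.06, 0.13, 0.93 and 0.87 TPM in control libraries. Control libraries 3, 7 and 9 stood apart there, while 4 and 5 lay within the miR-130a range. Col28a1 averaged 0.150 TPM in miR-130a and 0.128 TPM in control libraries.

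**Figure D3:**
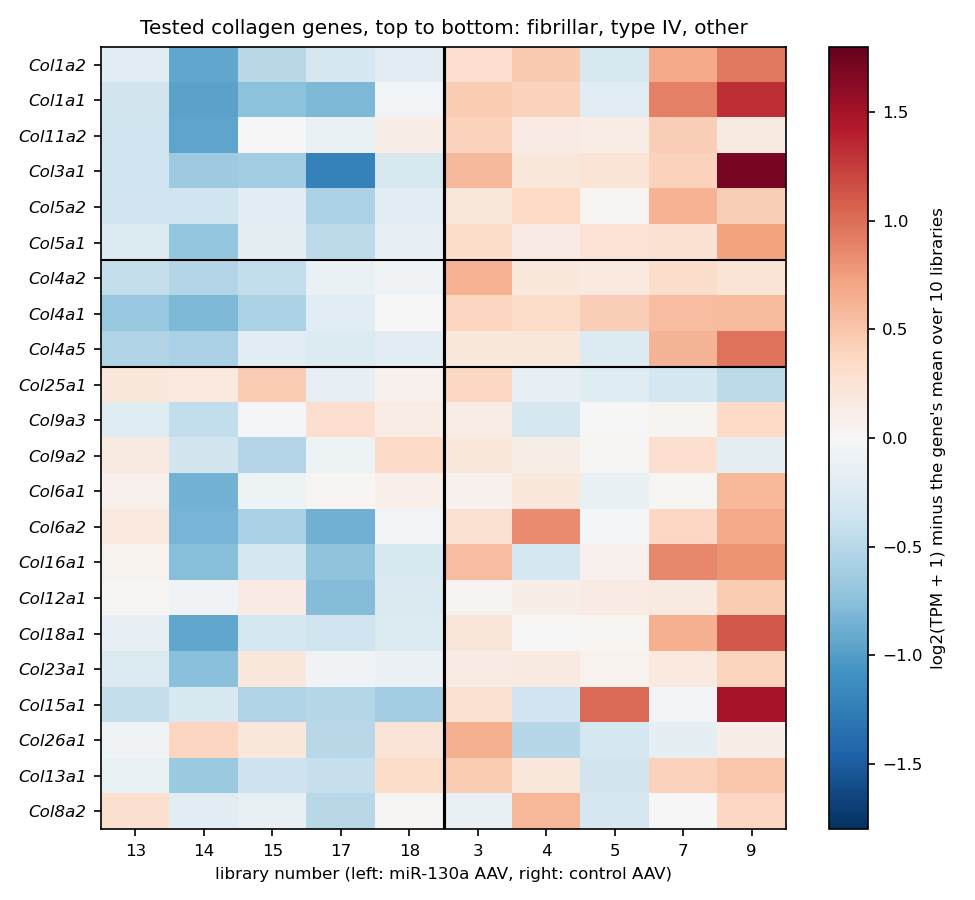
Tested collagen genes in rows (fibrillar, type IV, other) and libraries in columns (5 miR-130a AAV libraries left of the line, 5 control AAV libraries right of it); colour is log2(TPM + 1) minus the gene's mean over the 10 libraries. Control library 9 was the highest control for 13 of 22 genes and miR-130a library 14 the lowest miR-130a library for 13 of 22. MiR-130a library 18 was the highest of its group for 11 of 22 and control library 5 the lowest control for 11 of 22.

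Some libraries were the extreme of their group for many collagen genes, and this was not compared with all tested genes. Control library 9 was the highest control for 6 of the 9 genes that fell and miR-130a library 14 the lowest of its group for 6 of them. In the same 9 genes miR-130a library 18 was the highest of its group for 6 and control library 5 the lowest control for 5. Summed over all 44 genes, collagen level was 83.3 ± 13.1 TPM in miR-130a and 134 ± 24.1 TPM in control libraries (SD, n = 5 each). The fibrillar sum was 19.1, 12.1, 17.8, 16.4 and 23.4 TPM in miR-130a libraries, against 34.0, 32.7, 24.6, 40.8 and 55.5 TPM in control libraries. For type IV the sum was 13.6, 12.3, 14.5, 18.3 and 20.2 TPM in miR-130a libraries, against 30.7, 26.0, 26.1, 30.9 and 31.4 TPM in control libraries. Neither sum overlapped between the groups, and the fibrillar sum spread more among controls than the type IV sum did. The sum of other types did not overlap either, narrowly, at 39.9 to 56.4 TPM in miR-130a and 57.3 to 83.4 TPM in control libraries. Over all 44 genes the sums ranged from 64.2 to 99.9 TPM in miR-130a and from 108 to 170 TPM in control libraries. In shares of the summed collagen level, fibrillar genes held 21.3% in miR-130a and 28.1% in control libraries, type IV genes 18.9% and 21.7%, and other types 59.8% and 50.2%.

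**Figure D4:**
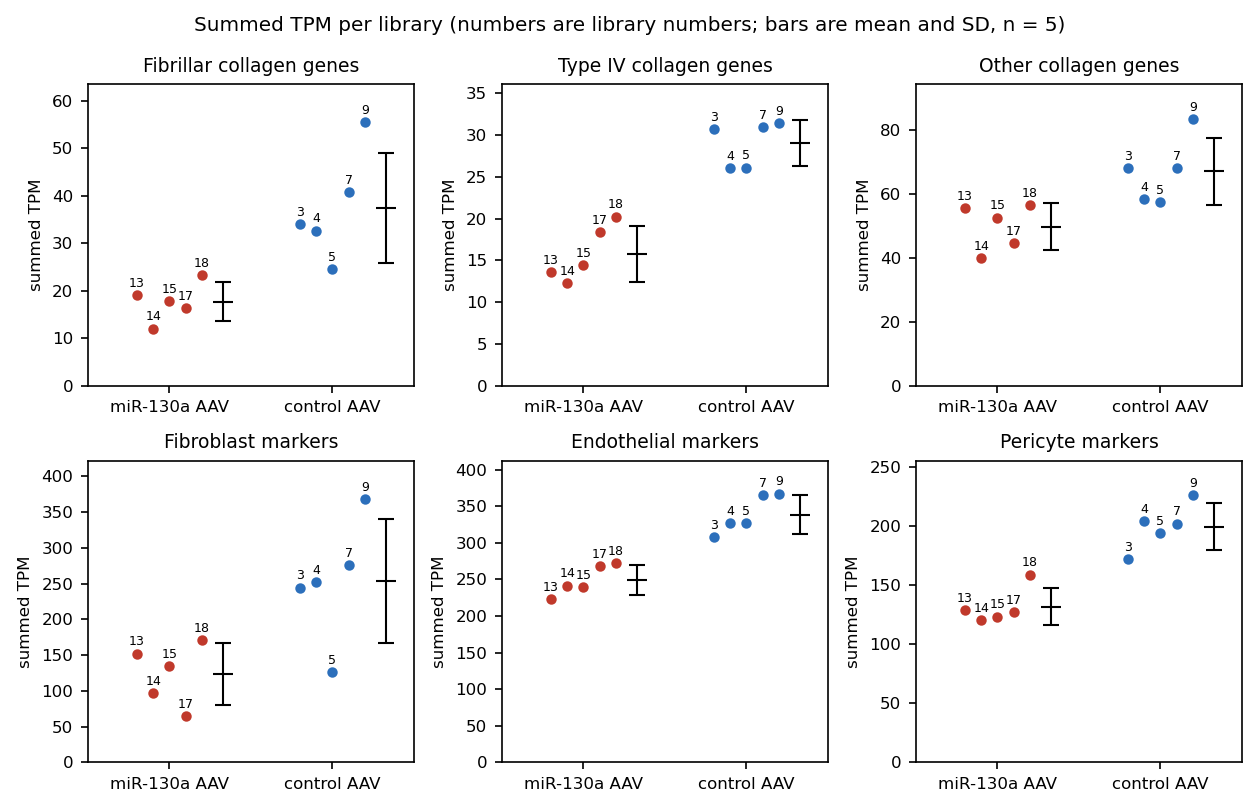
Summed TPM per library (linear axes from 0) of the 3 collagen classes, above, and of marker genes of fibroblasts, endothelial cells and pericytes, below; points carry library numbers, bars give mean and SD (n = 5 libraries per group), miR-130a AAV left. Groups do not overlap in the 3 collagen panels or in the endothelial and pericyte panels. Only the fibroblast panel overlaps, through control library 5 at 126 TPM.

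Markers of the cells that make collagen passed in part, and in bulk tissue fewer cells of a type and less RNA per cell cannot be told apart. For scale, 11.3% of all tested genes fell and 2.19% rose. Of 10 endothelial markers 6 fell and 0 rose, and their summed level ranged from 223 to 273 TPM in miR-130a and from 307 to 367 TPM in control libraries. Pericyte markers fell in 2 of 8, with sums of 120 to 159 TPM in miR-130a and 172 to 226 TPM in control libraries, while the pericyte marker Rgs5 had a log2 fold change of 0.02 and did not pass. Of 4 tested smooth muscle markers 1 fell, with sums over all 6 of 17.1 to 26.7 TPM and 30.5 to 41.0 TPM. Fibroblast markers fell in 4 of 12, namely Dcn, Igf2, Aldh1a2 and Fmod, with sums of 64.9 to 171 TPM in miR-130a and 126 to 368 TPM in control libraries. Control library 9 had the highest fibroblast sum, 368 TPM, and control library 5, low for Col1a1 and Col1a2, the lowest of its group at 126 TPM. The sums thus overlapped between the groups. Groups without overlap, found for 9.46% of all tested genes as lower and 1.85% as higher, were found for 0 of the 12 fibroblast markers. Their part in the collagen result was not tested. Every marker in these 4 lists had a value above 0 in at least 1 library. Microglial markers fell in 6 of 7, with sums of 437 to 629 TPM in miR-130a and 1075 to 2070 TPM in control libraries, and their part was not tested either. Excitatory neuron markers changed in 0 of 7, oligodendrocyte precursor markers in 0 of 6 and blood genes in 0 of 5. Astrocyte markers fell in 1 of 7 (Gfap), a share of 14.3% that lies near the 11.3% of all tested genes. Of 7 inhibitory neuron markers 2, Sst and Vip, rose. Choroid plexus genes summed to 1.42 to 4.49 TPM in miR-130a and 2.64 to 4.77 TPM in control libraries, and Ttr, the defining one, stayed at or under 1.36 TPM in every library.

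Genes that build collagen molecules were examined next. In the list for synthesis and folding, 9 of 21 fell (42.9%, against 11.3% of all tested genes), 0 rose and 12 did not pass. The median log2 fold change of this list was −0.36. Crtap, part of the complex that modifies proline in collagen, was at 6.20 ± 0.225 TPM in miR-130a and 9.75 ± 1.16 TPM in control libraries. Colgalt1, which adds galactose to collagen, was at 17.8 ± 2.16 and 26.5 ± 2.85 TPM, and the lysyl hydroxylase Plod3 at 12.8 ± 2.95 and 23.1 ± 4.24 TPM in the same groups (SD, n = 5 each). Groups did not overlap for these 3 genes, whose limma adjusted p-values lay between 0.00452 and 0.00787. Over the list, 7 of 21 genes were lower without overlap, against 9.46% of all tested genes. P4hb, Plod1, P3h3, P3h4, Fkbp10 and the collagen chaperone Serpinh1 made up the rest of the 9.

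In the list for propeptide processing and cross-linking, 1 of 8 tested genes fell, 0 rose and 6 more averaged under 1 TPM. That share, 12.5%, lies near the 11.3% of all tested genes that fell, so the count says nothing particular about this list. Pcolce, which enhances removal of the end pieces of fibrillar collagen, was at 8.02 ± 2.55 TPM in miR-130a and 18.1 ± 5.47 TPM in control libraries (SD, n = 5 each; limma adjusted p = 0.0134). The lysyl oxidase relative Loxl3 and the procollagen protease Bmp1 did not pass, at 1.73 ± 0.670 and 8.34 ± 1.33 TPM in miR-130a and 2.89 ± 0.531 and 10.6 ± 1.12 TPM in control libraries (limma adjusted p = 0.0767 and 0.103). The difference in share between this list and the one for synthesis was not tested.

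Of 6 tested collagen receptors 3 fell (50%, against 11.3% of all tested genes) and 0 rose. Another 4 of the list averaged under 1 TPM, and the receptor Adgrg1 was not matched to a protein-coding row. Lair1, an inhibitory collagen receptor of immune cells, was at 7.63 ± 1.86 TPM in miR-130a and 18.0 ± 5.30 TPM in control libraries, and the collagen-binding kinase Ddr1 at 33.4 ± 8.30 and 56.8 ± 4.61 TPM (SD, n = 5 each; limma adjusted p = 0.00573 and 0.00706). Mrc2, which takes up collagen for breakdown, was at 2.09 ± 0.549 and 4.51 ± 1.40 TPM in the same groups (limma adjusted p = 0.0244). Among genes of collagen breakdown and its inhibitors, 4 of 9 tested fell (44.4%, against 11.3% of all tested genes) and 0 rose. The proteases Mmp2 and Mmp14 fell there, and so did the inhibitors Timp1 and Timp2. Timp1 was at 0.918 ± 0.207 TPM in miR-130a and 3.97 ± 1.80 TPM in control libraries, Timp2 at 143 ± 9.17 and 207 ± 15.9 TPM, and Mmp2 at 1.74 ± 0.333 and 4.37 ± 1.45 TPM (SD, n = 5 each; limma adjusted p between 0.00259 and 0.00629).

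Partners of type IV collagen in the basement membrane fell in 7 of 13 tested genes (53.8%, against 11.3% of all tested genes), and 0 rose. Their median log2 fold change was −0.50. Agrn, a heparan sulfate proteoglycan, was at 25.7 ± 3.35 TPM in miR-130a and 41.6 ± 5.73 TPM in control libraries. The laminin chains Lamc3 and Lamb2 were at 1.39 ± 0.372 and 8.67 ± 1.37 TPM in miR-130a and 3.11 ± 0.519 and 14.1 ± 2.18 TPM in control libraries (SD, n = 5 each; limma adjusted p between 0.00460 and 0.00953 for the 3 genes). Nid1, Hspg2, Lama2 and Lamc1 made up the rest of the 7, and among the 7, already picked by their calls, the groups overlapped only for Lama2. Over the 13 tested genes, 7 were lower without overlap, against 9.46% of all tested genes. In the list of other matrix proteins that bind or accompany fibrils, 8 of 15 tested fell (53.3%, against 11.3% of all tested genes) and 0 rose. The median there was −0.64. Dcn and Fmod of this list are also fibroblast markers above, and Vtn a pericyte marker. Fibronectin (Fn1) was at 13.8 ± 2.44 TPM in miR-130a and 25.5 ± 3.39 TPM in control libraries, vitronectin (Vtn) at 73.6 ± 12.6 and 128 ± 12.2 TPM, and the proteoglycan biglycan (Bgn) at 9.77 ± 2.18 and 22.9 ± 6.16 TPM (SD, n = 5 each; limma adjusted p between 0.00226 and 0.00311). Without control libraries 7 and 9, 5 of 21 synthesis, 4 of 13 basement membrane and 5 of 15 fibril-associated matrix genes fell, in a setting where 15.6% of all tested genes did, and Pcolce did not pass.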

How the data were processed

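Per the labels' protocols, stranded libraries were made from poly(A) RNA whose integrity number was 6.5 or higher. The submitters' processing notes name HISAT2, RSEM, fastp and DESeq2 and the build GRCm39, with neither roles nor versions. The authors deposited TPM per gene and library, and 2 columns of group means that were not used. Depth is unknown, so no counting interval was computed and no count model was run.

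Columns were matched to libraries by sample titles. Values were analysed as log2(TPM + 1), with genes averaging at least 1 TPM, in limma 3.58.1 (lmFit, eBayes with trend; R 4.3.3, data.table version 1.17.8), 5 against 5 libraries, without covariates since the labels give no batch. The fit was tested on simulated data. Library numbers are not shared between groups, so they pair nothing, and any processing order that followed them cannot be told apart from the group.

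Collagen classes, related lists, markers and alternatives were chosen with earlier results of these data known. Genes described were those past the threshold, the 2 highest of each class and the 3 lowest p-values of each related list; others were chosen after their values were seen. The 3′ untranslated regions came from GENCODE M21 (GRCm38), matched by gene identifier, and promoters from RefSeq GRCm38.p6, a different build from that of the notes. The miR-29a-3p and TGCACT searches were added after the first search. Python 3.11.15, pandas 2.3.3, scipy 1.17.1 and matplotlib 3.10.9 were used.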

Additional observations from a re-analysis of the deposited data

Results flagged for a closer look

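In 5 cases the most extreme library of a group of 5 lay further from the rest than Dixon's 95% limit allows; 52 groups of values were screened, and chance flags about 1 in 20. Control library 9 was high for Col3a1 at 11.9 TPM, where the other controls lay between 3.57 and 4.92 TPM. It was also high for Col5a1 at 2.38 TPM, against 1.27 to 1.57 TPM in the other controls, and for Col12a1 at 4.81 TPM, against 3.39 to 3.75 TPM. Control library 3 was high for Col4a2 at 15.7 TPM, against 11.2 to 12.5 TPM in the other controls. The low case was miR-130a library 14 for Col6a1 at 2.60 TPM, against 5.11 to 5.94 TPM in the other miR-130a libraries. Of these genes Col3a1, Col5a1 and Col4a2 kept their calls when the library concerned was left out.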

How the results depend on the processing

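No paired analysis was possible because the groups share no library numbers. Across the 19 alternatives, 0 of the 9 lowered collagen genes changed direction. Their count, 9, was 5 under quantile normalization, 5 without a filter on low values, 4 with a mean of at least 5 TPM (8 genes tested), 3 without control libraries 7 and 9, and 4 to 10 on leaving out single libraries. The share of all genes lower was 6.67% under quantile normalization, 3.07% without a filter, 11.4% at 5 TPM, 15.6% without control libraries 7 and 9 and 7.07% to 18.6% without single libraries. Without libraries 7 and 9 the collagen share, 13.6%, was thus no higher than that of all genes. Under quantile normalization 1 collagen gene, Col25a1 of the other types, was higher. The fibrillar count, 5, was 3 under quantile normalization, 2 without a filter, 2 at 5 TPM, 1 without control libraries 7 and 9 and 2 to 5 without single libraries. The count of other types, 2, was 0 under median-ratio scaling, 0 under quantile normalization, 1 without mitochondrial genes, 4 with a pseudocount of 0.1, 1 without a filter, 0 at 5 TPM, 0 without control libraries 7 and 9 and 0 to 3 without single libraries. With a pseudocount of 0.1 the medians were −0.91 for all tested collagen genes, −1.26 for fibrillar and −1.001 for type IV, and at 5 TPM that of other types was −0.14. For synthesis and folding, 9 became 4 under median-ratio scaling, 5 under quantile normalization, 5 without a filter, 5 without control libraries 7 and 9 and 5 to 9 without single libraries. For propeptide processing, 1 became 2 without a filter, 0 without control libraries 7 and 9 and 1 to 2 without single libraries. For basement membrane partners, 7 became 3 under quantile normalization, 4 without a filter, 3 at 5 TPM, 4 without control libraries 7 and 9 and 4 to 7 without single libraries. For degradation, 4 became 2 at 5 TPM, and for fibril-associated matrix, 8 became 5 without control libraries 7 and 9. Directions reversed for Col9a3 (0.0013 under median-ratio scaling, 0.091 under quantile normalization, 0.0028 without control libraries 7 and 9), for Col9a2 (0.029 under quantile normalization) and for Col26a1 (from −0.020 without control library 4 to 0.27 without control library 3), none past the threshold. The cause of these shifts was not tested. Depth is unknown, so what it limits for genes under 1 TPM cannot be stated.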
